A study of Schmidtea mediterranea with 48 samples.

Results

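Six-hour wound faces of planarian tail fragments were compared between animals fed double-stranded RNA of myoD and animals fed a control RNA. The 6 libraries, 3 for each group, were taken from the 48 libraries of the series by their read-count columns, which carry the RNAi, the time and the replicate number. The animals of both groups were Schmidtea mediterranea of the asexual strain CIW4. The myoD RNAi group received double-stranded RNA of myoD, and the control group received that of unc-22, a gene of the nematode Caenorhabditis elegans. The labels give 10 feedings over 5 weeks for both groups, whereas the series text gives 8 feedings. Each replicate pooled 5 wounds, cut out 6 hours post-amputation (hpa). Neither source says whether the replicates came from separate animals, so the spread behind every p-value may be partly or wholly technical. Other groups used here are myoD RNAi and control wounds at 0, 24 and 48 hpa of the same experiment, and follistatin (fst) RNAi and control wounds of a second experiment with 6 feedings over 3 weeks. In that experiment the 0 and 6 hpa groups are described. Those at 24 hpa are described only for some named transcripts, and those at 48 hpa enter only the fits.

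myoD encodes a basic helix-loop-helix transcription factor that specifies muscle cells in many animals. In planarians, muscle is more than a contractile tissue, since its cells produce many of the secreted signals that tell a fragment which body part to replace. Amputation triggers a wave of wound-induced transcription within hours, before the blastema forms, and 6 hpa falls in that wave.

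Transcripts are given by the identifiers of the deposited table, which does not pair them with gene names. Therefore 0 identifiers could be matched to a gene: the level of the targeted gene could not be read, the gene and cell type lists set for this tissue could not be applied, and the label of the RNAi and the muscle content of the samples were not checked against marker genes. At most 2 rises and 2 falls are named for each comparison, chosen by size, with exceptions stated. Expression is reported as CPM, that is, reads of a transcript after all libraries are brought to one size. Values are not divided by transcript length, so levels are compared between samples and not between transcripts.

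The 3 myoD RNAi libraries at 6 hpa held 15531993, 18833325 and 18713020 counts, and the 3 control libraries held 15127598, 18065386 and 14973256. The 24 libraries of the experiment ran from 11698530 to 21974437. The myoD RNAi libraries were close to each other, with Pearson r of log2 CPM of 0.995 in every pair over 11409 transcripts, against 0.982 to 0.990 between control libraries. Control replicate 2 lay farthest from its group mean of all 24 libraries, with a median absolute deviation of 0.128 (log2), against a range of 0.0714 to 0.128 over the 24. Values without this library are given beside the results below that it moved most.

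At 6 hpa, myoD RNAi wounds had 35 transcripts at a higher and 64 at a lower level than control wounds. Together these 99 were 0.565% of the 17527 tested (0.2% higher and 0.365% lower), each at a Benjamini-Hochberg adjusted p under 0.05 in edgeR's quasi-likelihood test. Most of the changes were small. Of the called transcripts, 3 higher and 24 lower differed at least 1.5-fold, and 1 higher and 9 lower differed at least 2-fold. In all 99, the 3 myoD RNAi libraries lay wholly above or below the 3 control libraries, which was also true of 2810 transcripts, or 16% of those tested. Whole wound faces were sequenced, so fewer cells of a type and less RNA per cell cannot be told apart.

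**Figure D1:**
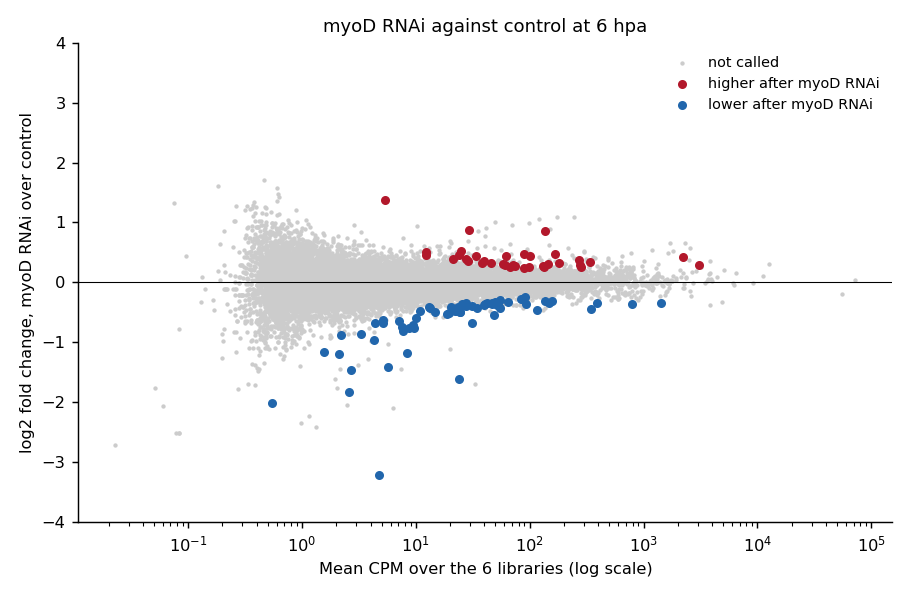
Log2 fold change of myoD RNAi over control at 6 hpa (vertical axis) against the mean CPM over the 6 libraries (horizontal axis, log scale), 1 point per transcript tested. The 64 lower transcripts (blue) reach to a log2 fold change of -3.22, and 34.4% of them lie under 10 CPM, against 47.4% of all tested. The 35 higher ones (red) lie at 5.41 CPM or more, with 2.86% under 10 CPM. The vertical axis ends at 4 in each direction, and 6 transcripts, 0 of them called, lie outside.

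The rises had a higher median level than the falls, and both included abundant transcripts. The lower transcripts had a median of 23.6 CPM (range 0.545 to 1416), the higher ones a median of 70.9 CPM (range 5.41 to 3056), and all transcripts tested a median of 11.4 CPM. Of the 64 lower transcripts, 34.4% were under 10 CPM, against 2.86% of the 35 higher and 47.4% of all. Transcripts at 100 CPM or more made up 12.5% of the lower, 34.3% of the higher and 9.58% of all. The median size of the log2 fold change was 0.48 among the lower and 0.35 among the higher transcripts, against 0.11 over all. The test detects small changes more readily at high counts. Of the 99, 4 shared an assembly component number with another of the 26563 transcripts, tested or not, and of the 17527 tested 288 did. For such pairs it cannot be told which of them the reads came from.

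dd_Smed_v4_12634_0_1 fell most of all called transcripts. It had 0.943, 1.44 and 0.378 CPM in myoD RNAi wounds, against 8.55, 6.74 and 10.5 CPM in control wounds. All 3 RNAi libraries were far below all 3 controls. The means were 0.92 ± 0.532 CPM after myoD RNAi and 8.59 ± 1.87 CPM in control (SD, n = 3 each), a log2 fold change of -3.22 with an SE of 0.32 (adjusted p = 5.00e-06, edgeR). The difference was there at amputation and lasted over the time course. At 0 hpa the transcript had 0.649, 0.796 and 1.04 CPM after myoD RNAi, against 11.2, 16.7 and 15.3 CPM in control. At 48 hpa it had 0.965, 0.366 and 1.03 CPM after myoD RNAi, against 15.6, 15.8 and 12.2 CPM in control. In control wounds it was lower at 6 hpa than at 0 hpa, with a log2 change of -0.75 (SE 0.21, adjusted p = 0.0146), and the change after myoD RNAi was 0.15 (SE 0.47, adjusted p = 0.873). The myoD effect at 6 hpa minus that at 0 hpa was 0.90 (SE 0.52, adjusted p = 0.999), so a smaller effect at 6 hpa was not shown.

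dd_Smed_v4_18181_0_1 had the next largest fall among called transcripts with a mean of at least 1 CPM. It had 1.14, 1.27 and 1.03 CPM in myoD RNAi wounds, against 3.90, 3.93 and 4.37 CPM in control wounds. The replicates of each group were tight and the groups lay far apart. The means were 1.15 ± 0.121 CPM after myoD RNAi and 4.07 ± 0.264 CPM in control (SD, n = 3 each), a log2 fold change of -1.82 with an SE of 0.21 (adjusted p = 4.41e-06, edgeR). It was also lower after myoD RNAi at 0 hpa (-2.37), 24 hpa (-1.11) and 48 hpa (-2.11), each a call. The smaller effect at 24 hpa than at 6 hpa did not pass the test of the difference (0.71, SE 0.30, adjusted p = 0.301).

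dd_Smed_v4_7888_0_1 rose most. It had 7.74, 7.03 and 8.75 CPM in myoD RNAi wounds, against 1.85, 3.87 and 3.19 CPM in control wounds. Every RNAi library was above every control, and control replicate 1 was the lowest of the 6. The means were 7.84 ± 0.865 CPM after myoD RNAi and 2.97 ± 1.03 CPM in control (SD, n = 3 each), a log2 fold change of 1.38 with an SE of 0.22 (adjusted p = 0.00145, edgeR). It was higher after myoD RNAi at 0 hpa (0.97, adjusted p = 0.0203) and 48 hpa (0.78, adjusted p = 0.0275). At 24 hpa the log2 fold change was 0.50 (adjusted p = 0.245), with 3.48, 3.94 and 3.95 CPM after myoD RNAi, against 2.60, 2.61 and 2.82 CPM in control. The groups did not overlap at 24 hpa either, although the call was lost.

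dd_Smed_v4_8444_0_1 had 32.7, 39.1 and 42.9 CPM in myoD RNAi wounds, against 19.1, 22.8 and 20.6 CPM in control wounds. All RNAi libraries were above all controls, and they were more spread than the controls. The means were 38.2 ± 5.14 CPM after myoD RNAi and 20.8 ± 1.89 CPM in control (SD, n = 3 each), a log2 fold change of 0.88 with an SE of 0.11 (adjusted p = 2.79e-05, edgeR). It was called higher at every other time, by 0.60 (log2) at amputation, 0.37 at 24 hpa and 0.47 at 48 hpa. These 4 transcripts kept their calls in each of 11 alternative fits, which include leaving out each of the 6 libraries.

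**Figure D2:**
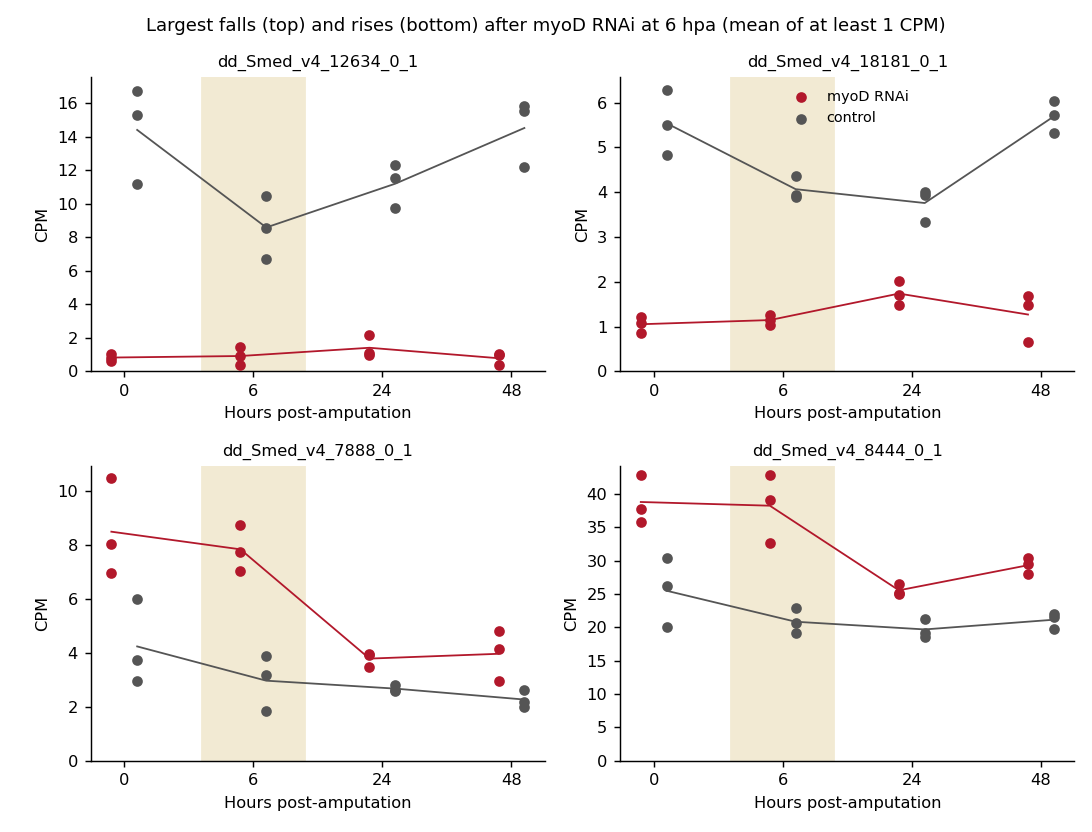
CPM of the 2 transcripts with the largest falls (top) and the 2 with the largest rises (bottom) after myoD RNAi at 6 hpa, among called transcripts whose mean reached 1 CPM, per library (points) at 0, 6, 24 and 48 hpa, with lines through the group means (myoD RNAi red and left, control grey and right of each time). At 6 hpa, shaded, the 3 libraries of each group do not overlap in any panel, and the same holds at 0 hpa, where dd_Smed_v4_12634_0_1 had 0.649 to 1.04 CPM after myoD RNAi and 11.2 to 16.7 CPM in control.

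The other 33 higher transcripts differed by 1.18-fold to 1.82-fold, and the other 62 lower ones by 1.18-fold to 4.01-fold. The number of calls rested on single libraries. Without myoD RNAi replicate 1, 2 or 3 it was 49, 40 and 41. Without control replicate 1, 2 or 3 it was 34, 191 and 62. Of the 99 transcripts, 81 were among the 191 called without control replicate 2. A core of 24 transcripts, 9 higher and 15 lower, was called in the full comparison and without each library in turn, with log2 fold changes of 0.33 to 3.22 in size. In the authors' deposited table, 45 transcripts had an adjusted p under 0.05 for this comparison, 15 higher and 30 lower after myoD RNAi. Of these, 44 were among the 99 found here in the same direction, which is 97.8% of the authors' list and 44.4% of the 99.

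The 99 transcripts were next followed to the other times of the experiment, whose libraries are separate from those at 6 hpa. The fit shares its estimate of each transcript's spread over all times, so calls at different times are not fully independent. The shares over all transcripts given beside them are not matched for level. Of the 64 lower transcripts, 37 were also called lower at 0 hpa, where 0.542% of all transcripts were, and 0 were called higher. Their median log2 fold change at 0 hpa was -0.40, against 0.00 over all transcripts, and 60 of the 64 had the same sign. They make up 38.9% of the 95 transcripts called lower at 0 hpa. Of the 35 higher transcripts, 6 were called higher at 0 hpa, where 0.0456% of all transcripts were, which is 75% of the 8 transcripts called higher there. All 35 had a log2 fold change above 0 at 0 hpa, but with a median of 0.12 most of these were small. The share of 6 hpa falls also called at 0 hpa, 57.8%, ranged from 35% (without control replicate 2) to 81.8% (without myoD RNAi replicate 2) when 1 library at 6 hpa was left out, and that of the rises, 17.1%, from 5.68% (without control replicate 2) to 40% (without control replicate 1).

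Later in regeneration, most of the 99 kept their direction. At 24 hpa, 15 of the 35 higher transcripts were called higher, against 2.48% of all, and 0 were called lower (median log2 fold change 0.24). Of the 64 lower ones, 27 were called lower at 24 hpa, against 3.37% of all, and 0 were called higher (median -0.24). At 48 hpa, where 12.7% of all transcripts were called higher and 12.9% lower, the higher transcripts held 23 called higher and 2 called lower (median 0.25). The lower transcripts held 30 called lower and 3 called higher at 48 hpa (median -0.23). These shares moved with single 6 hpa libraries. The share of rises also called higher at 24 hpa, 42.9%, ranged from 19.3% (without control replicate 2) to 70% (without control replicate 1), and that of falls also called lower, 42.2%, from 22.3% (without control replicate 2) to 68% (without myoD RNAi replicate 3). At 48 hpa the share of rises, 65.7%, ranged from 36.4% (without control replicate 2) to 100% (without control replicate 1), and that of falls, 46.9%, from 30.1% to 79.2% without the same libraries. A minority of the 99 transcripts had changed sign by 48 hpa, with 6 of the 35 and 18 of the 64 on the other side of 0.

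**Figure D3:**
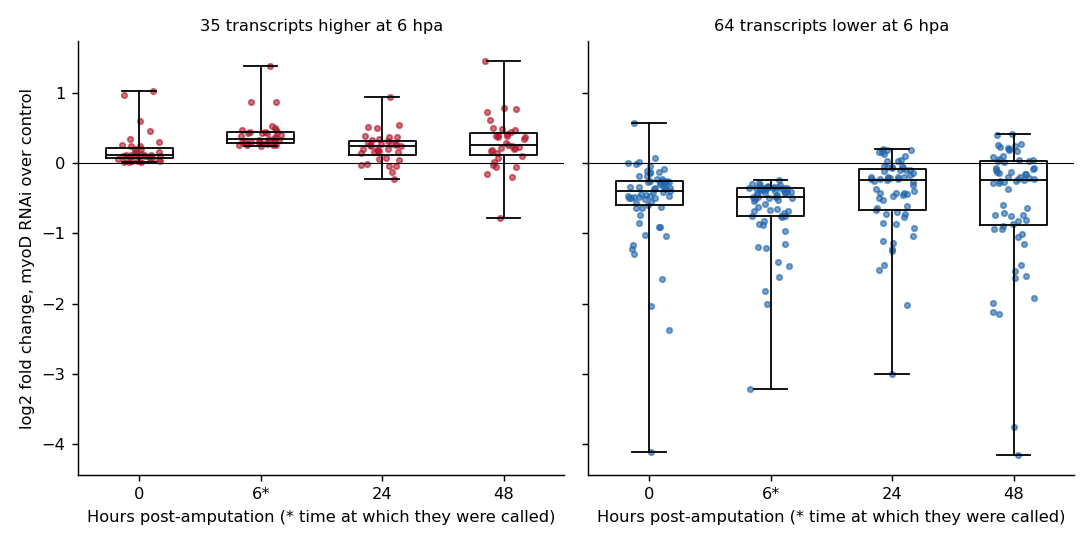
Log2 fold change of myoD RNAi over control at 0, 6, 24 and 48 hpa for the 35 transcripts higher (left) and the 64 lower (right) at 6 hpa. Points are transcripts, boxes span the quartiles with the median as a line, and whiskers reach the extremes; the values at 6 hpa chose the transcripts, and the medians at 0, 24 and 48 hpa are 0.12, 0.24 and 0.25 on the left and -0.40, -0.24 and -0.23 on the right.

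Whether the effect of myoD RNAi at 6 hpa differs from that at amputation was tested directly, as the difference between the log2 fold changes at 6 and 0 hpa. This is also the difference between the early wound responses of RNAi and control animals. In edgeR, 0 transcripts, or 0% of those tested, passed at an adjusted p under 0.05. At an unadjusted p under 0.05, 505 of the 17527 had a positive and 322 a negative difference. DESeq2 also called 0, with 357 positive and 228 negative at an unadjusted p under 0.05. In both tools this total was below the number that the unadjusted threshold would pass if no transcript differed. Leaving out single libraries gave 0 or 1 call. A miss of the threshold does not show that the responses were alike, since a difference of 4 group means carries more error than 1 comparison.

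dd_Smed_v4_24180_0_1 had the smallest p-value of that difference and was singled out for this after its values were seen. At 6 hpa it had 1.62, 1.38 and 0.864 CPM in myoD RNAi wounds, against 3.22, 2.92 and 2.64 CPM in control wounds. At 0 hpa it had 2.05, 1.06 and 2.02 CPM after myoD RNAi, against 1.14, 1.20 and 1.08 CPM in control. The groups did not overlap at 6 hpa and overlapped at 0 hpa, where myoD RNAi replicate 2 was level with the controls. From 0 to 6 hpa it rose in control wounds by 1.36 on the log2 scale (SE 0.26, adjusted p = 0.000227), and the change after myoD RNAi was -0.42 (SE 0.26, adjusted p = 0.297). The difference between these changes was -1.78 (SE 0.37, adjusted p = 0.452), and without myoD RNAi 0 hpa replicate 2 it was -2.04 with an adjusted p of 0.0458 (edgeR). At 6 hpa alone the log2 fold change was -1.20 (SE 0.25, adjusted p = 0.0140), a call lost without myoD RNAi replicate 2 (adjusted p = 0.0508), myoD RNAi replicate 3 (0.141) or control replicate 1 (0.0927). In the authors' deposited table its adjusted p at 6 hpa was 0.0711. It stayed lower after myoD RNAi, with 2.40, 2.49 and 2.44 CPM after myoD RNAi against 5.87, 8.02 and 7.09 CPM in control at 24 hpa (log2 fold change -1.52, adjusted p = 7.38e-06).

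The early wound response itself was large in both groups. Between 6 and 0 hpa, myoD RNAi wounds showed 1726 transcripts that rose and 1248 that fell, or 17% of those tested. Control wounds showed 1738 that rose and 1748 that fell, or 19.9%. At least 2-fold changes numbered 290 higher and 51 lower after myoD RNAi and 274 higher and 67 lower in control. These 2 comparisons share their 6 hpa libraries with the comparison of myoD RNAi and control, so only their own counts are given. The myoD RNAi total of 2974 was 1963 without myoD RNAi 0 hpa replicate 1.

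Wound-responsive transcripts were therefore taken from other libraries, the controls of the 6-feeding experiment, in which 6.59% of transcripts differed between 6 and 0 hpa. There 99 transcripts rose and 136 fell at least 2-fold, of which 96 and 129 were tested in the 10-feeding experiment. Of the 96 risen transcripts, 66 rose from 0 to 6 hpa after myoD RNAi and 66 rose in the 10-feeding controls, and 0 fell in either. The median log2 change was 0.96 after myoD RNAi and 1.07 in control. Between the groups at 6 hpa, 0 of the 96 were called higher and 3 lower in edgeR, which is 3.13%, and also 0 and 3 in DESeq2. At an unadjusted p under 0.05, 3 lay above and 19 below control, against 943 and 931 of all 17527 transcripts (edgeR). The median log2 fold change of the 96 was -0.11, against 0.00 over all transcripts. The 3 called lower compare with 0.365% of all transcripts. With 1 library left out, the lower calls numbered 1 to 4, with 1 higher call without control replicate 2. One of the 3 was dd_Smed_v4_24180_0_1, and the other 2 had log2 fold changes of -0.54 and -0.43. At 0 hpa the median of the list was already -0.06, and the median difference between 6 and 0 hpa was -0.02, against 0.01 over all transcripts. In 54 of the 96, or 56.3%, the response after myoD RNAi was the smaller, against 46.4% of all transcripts. At 24 hpa the median of the list was -0.34. Read from the other side, 0 of the 35 rises seen with myoD RNAi at 6 hpa were wound-responsive in the 6-feeding controls at an adjusted p under 0.05. With 6.59% of all transcripts called there, few of 35 would be, so nothing is read from the 0. At an unadjusted p under 0.05, 2 rose and 2 fell, against 1820 and 1790 of all 17815 transcripts (edgeR). Of the 64 lower ones, 7 were called as rising and 3 as falling there, against 674 and 500 of the 17815.

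Per library, the risen list stood 0.945, 0.953 and 0.917 above the 0 hpa mean of its own group (median log2 change) after myoD RNAi, against 1.07, 1.13 and 0.875 in control. The control libraries lay on both sides of the RNAi libraries. The means were 0.938 ± 0.0188 after myoD RNAi and 1.02 ± 0.132 in control (SD, n = 3 each), a difference within the spread of the controls. The list's median of -0.11 between the groups became -0.03 without control replicate 2 and ranged from -0.18 to -0.03 over the 6 libraries left out.

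The fallen list did not fall in the 10-feeding experiment. Of its 129 transcripts, 47 rose and 10 fell from 0 to 6 hpa after myoD RNAi, and 34 rose and 9 fell in control, with median log2 changes of 0.31 after myoD RNAi and 0.28 in control. Between the groups at 6 hpa, 0 of the 129 were called in edgeR or in DESeq2, where edgeR called 0.565% of all transcripts. The median log2 fold change was 0.11. At an unadjusted p under 0.05, 8 lay above and 5 below control, against 943 and 931 of all 17527 transcripts (edgeR). The libraries stood at 0.404, 0.304 and 0.297 after myoD RNAi, against 0.205, 0.265 and 0.329 in control, so the groups overlapped.

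**Figure D4:**
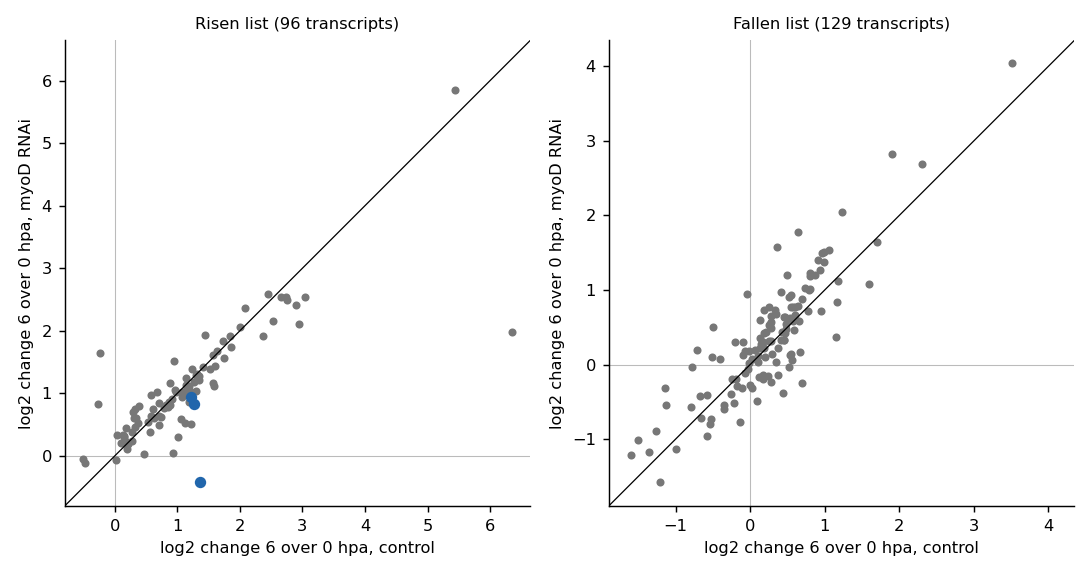
Log2 change from 0 to 6 hpa after myoD RNAi (vertical) against that in control (horizontal) for transcripts that rose (left, 96) or fell (right, 129) at least 2-fold in the controls of the 6-feeding experiment. The black line marks equal changes, and blue points are the 3 transcripts called lower after myoD RNAi at 6 hpa; most risen transcripts lie near the line, with medians of 0.96 after myoD RNAi and 1.07 in control.

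The effect of myoD RNAi changed by 24 hpa for a set of transcripts. The difference between the log2 fold changes at 24 and 6 hpa passed the test in 73 transcripts (37 positive, 36 negative), or 0.417% of those tested. This count was 491 without control 6 hpa replicate 2, 130 without control 24 hpa replicate 2, and 35 to 47 without one of 7 other libraries. Of the transcripts called at 6 hpa, 2 of the 35 higher and 5 of the 64 lower were among the 73, all with an effect that moved against their 6 hpa direction; the difference uses the 6 hpa libraries that chose these transcripts, so nothing is read from that direction.

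dd_Smed_v4_16222_0_1 showed the largest negative difference. At 6 hpa it had 15.2, 13.4 and 11.3 CPM in myoD RNAi wounds, against 17.4, 17.1 and 13.0 CPM in control wounds. At 0 hpa all 6 libraries of both groups were between 0.162 and 0.572 CPM. At 24 hpa it had 1.16, 1.14 and 0.503 CPM after myoD RNAi, against 8.03, 14.5 and 13.1 CPM in control. It was thus induced in both groups at 6 hpa, with log2 changes from 0 hpa of 5.84 after myoD RNAi and 5.44 in control, and at 24 hpa it was far lower after RNAi than in control, though all 3 RNAi libraries were still above those at 0 hpa. The log2 fold change was -0.26 at 6 hpa (SE 0.18, adjusted p = 0.637) and -3.65 at 24 hpa, a difference of -3.39 (SE 0.34, adjusted p = 4.60e-06, edgeR).

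dd_Smed_v4_28398_0_1 was also induced in both groups at 6 hpa and lower after myoD RNAi at 24 hpa, at lower levels. At 6 hpa it had 2.29, 1.90 and 1.89 CPM after myoD RNAi, against 1.92, 1.12 and 1.39 CPM in control. At 24 hpa it had 0.331, 0.414 and 0.287 CPM after myoD RNAi, against 2.08, 1.96 and 1.54 CPM in control. These RNAi values overlapped those at 0 hpa, which were 0.324, 0.318 and 0.490 CPM after myoD RNAi. The groups overlapped slightly at 6 hpa, with a log2 fold change of 0.46 with an SE of 0.24 (adjusted p = 0.495), and were wide apart at 24 hpa, at -2.35. The difference was -2.81 (SE 0.41, adjusted p = 0.000211, edgeR). At 48 hpa the log2 fold change was -0.51 (adjusted p = 0.381), whereas that of dd_Smed_v4_16222_0_1 was still -4.22 (adjusted p = 3.00e-09, edgeR).

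dd_Smed_v4_16227_0_1 and dd_Smed_v4_12035_0_1 showed the largest positive differences. dd_Smed_v4_16227_0_1 had 3.23, 2.82 and 2.54 CPM after myoD RNAi at 6 hpa, against 5.06, 2.75 and 6.94 CPM in control. At 24 hpa it had 8.04, 10.1 and 6.68 CPM after myoD RNAi, against 2.23, 2.67 and 1.72 CPM in control. The groups overlapped at 6 hpa (log2 fold change -0.76, adjusted p = 0.228), and all RNAi libraries were above the controls at 24 hpa, for a difference of 2.71 (SE 0.36, adjusted p = 0.000211, edgeR). dd_Smed_v4_12035_0_1 had 4.17, 4.03 and 4.21 CPM after myoD RNAi at 6 hpa, against 3.01, 4.88 and 3.89 CPM in control. At 24 hpa it had 1.74, 2.38 and 2.23 CPM after myoD RNAi, against 0.669, 0.326 and 0.440 CPM in control. The groups overlapped at 6 hpa and the RNAi libraries were above the controls at 24 hpa, and the difference between the effects was 2.12 (SE 0.38, adjusted p = 0.00318, edgeR). At 24 hpa after fst RNAi, dd_Smed_v4_16222_0_1 had a mean of 3.13 ± 0.709 CPM against 14.6 ± 1.76 in the 6-feeding controls (fit of all libraries). dd_Smed_v4_16227_0_1 had 5.75 ± 1.26 against 1.98 ± 0.185, and dd_Smed_v4_12035_0_1 had 1.89 ± 0.265 against 0.502 ± 0.12. These lay on the same side of control as after myoD RNAi, whereas dd_Smed_v4_28398_0_1 had 1.57 ± 0.257 against 1.41 ± 0.0715 (SD, n = 3 each). The fst effect at 24 hpa was not tested.

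**Figure D5:**
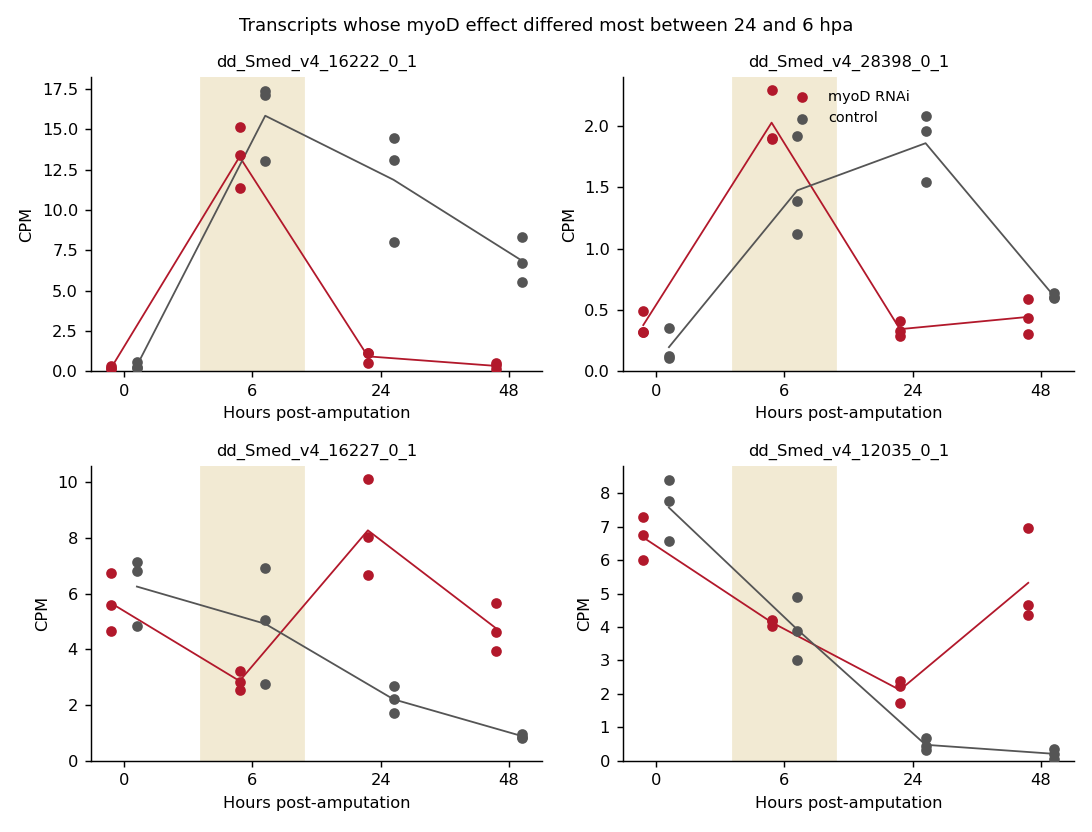
CPM per library (points) and group means (lines) at 0, 6, 24 and 48 hpa for the 4 transcripts whose myoD effect differed most between 24 and 6 hpa, with myoD RNAi red and left and control grey and right of each time. At 6 hpa, shaded, the groups overlap in every panel, and at 24 hpa they are apart, as in dd_Smed_v4_16222_0_1 with 0.503 to 1.16 CPM after myoD RNAi and 8.03 to 14.5 CPM in control.

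The effect of myoD RNAi at 6 hpa was set against that of fst RNAi at the same time, which has its own controls and shares no library with it. follistatin encodes a secreted protein that binds and blocks Activin-type ligands. The number of feedings and the experiment go with the RNAi and cannot be told apart from it. fst RNAi changed 0.982% of transcripts at 6 hpa. Of the 35 transcripts higher after myoD RNAi, 1 was called higher and 0 lower after fst RNAi (median log2 fold change -0.10). Of the 64 lower transcripts, 0 were called in edgeR in either direction (median -0.03). At an unadjusted p under 0.05, 5 of the 35 were above and 8 below control, and 5 of the 64 were above and 6 below (edgeR). Over all 17815 transcripts, 1099 were above and 1288 below at that threshold. The sign was the same as after myoD RNAi in 11 of the 35 and 34 of the 64. dd_Smed_v4_12634_0_1 had a log2 fold change of -0.20 after fst RNAi (adjusted p = 0.664) and dd_Smed_v4_18181_0_1 one of 0.00 (adjusted p = 0.999). For dd_Smed_v4_8444_0_1 the value after fst RNAi was 0.52 (adjusted p = 0.0620) and the difference from the myoD effect was 0.36 (SE 0.18, adjusted p = 0.372), which was not shown to differ.

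In a fit of all 48 libraries, the 6 hpa effects of myoD RNAi and fst RNAi differed by the test of their difference in 312 of 18230 transcripts, or 1.71%, with 183 positive and 129 negative differences (myoD minus fst). The count was 114 without control 6 hpa replicate 2 of the 10-feeding experiment and 700 without fst 48 hpa replicate 1, a library whose label notes contamination with H. sapiens. It was 131 without myoD RNAi replicate 3, 133 without fst 6 hpa replicate 2, and 180 to 195 without one of 4 other 6 hpa libraries. One of these turned the balance, with 88 positive and 107 negative differences without 6-feeding control 6 hpa replicate 3. dd_Smed_v4_12634_0_1 had the largest negative difference, -3.03 (SE 0.36, adjusted p = 3.15e-06, edgeR).

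For a pair of the other named transcripts, fst RNAi gave a call and myoD RNAi did not. dd_Smed_v4_42763_0_1 had 2.03, 2.26 and 1.42 CPM in myoD RNAi wounds, against 2.08, 2.74 and 1.61 CPM in their controls. It had 5.38, 4.56 and 3.38 CPM in fst RNAi wounds, against 0.120, 0.884 and 1.02 CPM in their controls. The myoD groups overlapped and the fst groups did not (log2 fold change 2.78 after fst RNAi, adjusted p = 0.00408), for a difference of -2.97 (SE 0.55, adjusted p = 0.00332, edgeR). dd_Smed_v4_315_0_1 had 154, 111 and 165 CPM in myoD RNAi wounds, against 130, 103 and 101 CPM in their controls. It had 52.1, 77.5 and 73.2 CPM in fst RNAi wounds, against 235, 171 and 271 CPM in their controls. This transcript was lower after fst RNAi (log2 fold change -1.74, adjusted p = 0.000315), with overlap between the myoD groups, and the difference was 2.11 (SE 0.34, adjusted p = 0.000762, edgeR). For both transcripts the fst groups were already apart at 0 hpa. Means there were 5.68 CPM after fst RNAi against 0.669 in control for dd_Smed_v4_42763_0_1, and 134 against 280 for dd_Smed_v4_315_0_1. The 10-feeding and 6-feeding controls also differed at 6 hpa, with means of 2.14 and 0.674 CPM, and of 111 and 226 CPM. How much of each difference lies in the controls was not tested. dd_Smed_v4_30074_0_1 passed the test of the difference, 2.04 (SE 0.44, adjusted p = 0.00920), but neither effect was a call of its own, and the adjusted p was 0.0504 without control 6 hpa replicate 2 (edgeR). Its log2 fold changes were 1.02 for myoD RNAi (adjusted p = 0.248) and -1.03 for fst RNAi (adjusted p = 0.0566).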

How the data were processed

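RNA sequencing of poly(A) RNA from 5 wound faces per replicate was analysed (TriZOL, Kapa Stranded mRNA-Seq, per the labels' protocols). Per the submitters' processing notes, CASAVA, cutadapt 1.8, Bowtie 1.1.1, SAMtools and DESeq were used. The transcriptome build, its annotation and the use of strand in counting are not given in the sources used here.

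Raw read counts were deposited by the authors as a table of 26563 transcripts. Their comparison tables, per the file headers, hold group means (here taken as a normalised signal), a fold change as a ratio, its log2 value, a p-value and its adjusted form. The authors' deposited values are quoted only where named.

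Counts were fitted in R 4.3.3 with edgeR 4.0.16 (filterByExpr, TMM, robust quasi-likelihood F-tests), with 1 coefficient per group over the 24 libraries of the 10-feeding experiment, which share 1 estimate of the spread. The 6-feeding experiment was fitted in the same way, and all 48 libraries together for the myoD effect minus the fst effect. Transcripts were called at an adjusted p under 0.05 over all transcripts tested. The SE of a log2 fold change is the fold change's size over root F. The biological coefficient of variation was 8.34%. Scripts were tested on simulated data with known changes.

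Replicates differed by more than sampling noise, which does not show whether they came from separate animals. All 6 libraries were kept. Named transcripts are, per comparison, the 2 largest positive and 2 largest negative changes among transcripts called whose mean reached 1 CPM, without overlap of the groups in the comparison at 6 hpa; dd_Smed_v4_24180_0_1 was added after its values were seen. The comparisons, rules and lists were chosen with earlier results of these data known. Alternatives were RLE size factors, no filter on low counts, DESeq2 1.42.0, a replicate block, a fit of the compared groups alone, and each library left out.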

Additional observations from a re-analysis of the deposited data

Results flagged for a closer look

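These results stand out because 2 effects, each a log2 fold change of RNAi over its own controls, differed by a test of the difference itself. Between 24 and 6 hpa, the myoD effect differed in 73 transcripts. The difference was -3.39 for dd_Smed_v4_16222_0_1 and -2.81 for dd_Smed_v4_28398_0_1, both induced by 6 hpa in myoD RNAi and control wounds. It was 2.71 for dd_Smed_v4_16227_0_1 and 2.12 for dd_Smed_v4_12035_0_1. Of these, all but dd_Smed_v4_28398_0_1 lay on the same side of control after fst RNAi at 24 hpa, where no test was run. Between myoD RNAi and fst RNAi at 6 hpa, 312 transcripts differed in their effect. The difference was -3.03 for dd_Smed_v4_12634_0_1, -2.97 for dd_Smed_v4_42763_0_1, 2.11 for dd_Smed_v4_315_0_1 and 2.04 for dd_Smed_v4_30074_0_1. All are log2 values from edgeR.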

How the results depend on the processing

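Of the 105 alternatives of the results that answer a comparison, most of them counts of calls, 71 kept their side of the threshold or a count within 1.5 times. The number of transcripts called at 6 hpa was 155 with DESeq2, 101 with RLE size factors, 106 without a filter and 95 when only the 6 libraries were fitted, of which 58 were among the 99. It was 27 at 1.5-fold and 10 at 2-fold or more, and 34 to 191 when 1 library was left out. The difference between 24 and 6 hpa held 137 calls with DESeq2, 44 when only its groups were fitted, and 35 to 491 with 1 library left out. The difference between myoD and fst held 561 calls with DESeq2 and 114 to 700 with 1 library left out. The difference between 6 and 0 hpa held 0 to 1. The 6 against 0 hpa counts ran from 1963 to 2390 after myoD RNAi and from 2379 to 3155 in control. The medians of the wound lists ran from -0.18 to -0.03 (risen) and from 0.07 to 0.16 (fallen) with 1 library left out, and that of the fallen list was 0.029 without the fold threshold. Where the causes of these moves are not fewer samples or fewer transcripts, the cause was not tested. Same-numbered libraries of the 2 groups at 6 hpa deviated together with correlations of 0.28, -0.09 and -0.15, so the numbers were not read as pairs. With a replicate block, 105 transcripts were called at 6 hpa, 81 of them among the 99, and the difference between myoD and fst held 195. Depth limits transcripts under about 1 CPM, where few reads stand behind a value.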

Other observations

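dd_Smed_v4_1320_0_1 was chosen after its values were seen, as a transcript of a single library. It had 568 counts in control 6 hpa replicate 2 and 0 in the other 5 libraries at 6 hpa, and its log2 fold change between myoD RNAi and control did not pass the test (adjusted p = 0.477, edgeR). At other times of the experiment, too, single libraries held nearly all its counts. At 0 hpa these were 24 counts in myoD RNAi replicate 2 and 260 in control replicate 3, at 24 hpa 94 in control replicate 1, and at 48 hpa 265 in myoD RNAi replicate 1. Each of the other libraries of the experiment held at most 2 counts.

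At 6 hpa, dd_Smed_v4_7888_0_1 had 7.89 ± 0.888 CPM after myoD RNAi and 3.01 ± 1.05 CPM in its controls, and 9.21 ± 1.84 CPM after fst RNAi and 6.34 ± 1.08 CPM in its controls, in the fit of all libraries (SD, n = 3 each). The effects of the 2 treatments were not shown to differ (difference 0.82, SE 0.37, adjusted p = 0.279, edgeR).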
